A study of Homo sapiens with 34 samples.

Results

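The mitochondrial ribosome proteins encoded in the nucleus are named in humans by the symbols MRPL and MRPS followed by a number. All protein-coding genes with such a symbol on chromosomes 1 to 22 and X were taken, which gave 77 genes (49 MRPL and 28 MRPS) among 19970 protein-coding genes of the RefSeq gene table, spread over 21 chromosomes. The rule used symbols only and no measured value. A gene was called occupied in a library where a region of that library's deposited list overlapped the gene, extended by 1 kb on each side, by at least 1 bp. Throughout, occupied means no more than this overlap.

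The mitochondrial ribosome translates the few messenger RNAs that mitochondrial DNA encodes, all of them for core subunits of the respiratory chain and the ATP synthase. Its RNAs come from mitochondrial DNA, and its proteins are translated in the cytosol, imported and built into a large subunit, which holds the peptidyl transferase centre, and a small subunit, which reads the messenger RNA. Many of the proteins have a bacterial counterpart and the others were acquired in the mitochondrial lineage. Their genes are housekeeping genes, active in nearly all human cell types.

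U2OS cells, from a human osteosarcoma, were held in early S phase by a double thymidine block and a release of 3 h. They had received siGl3, a control siRNA, or siOrc6, an siRNA against Orc6, the smallest of the origin recognition complex subunits, for 72 h, and were left non-treated (NT) or exposed to 5 mM H2O2 for 30 min. CUT&RUN, in which an antibody directs a nuclease to cut and release the DNA around its target, was done for SMARCA1, an ISWI-family chromatin remodelling ATPase, and for OGG1, the glycosylase that removes 8-oxoguanine, under all 4 conditions, and for Orc6 under siGl3 alone. Each of these 10 groups had 2 libraries, and their replicate numbers are batches per the labels. Nothing says that the replicates came from separate cultures, so the p-values speak for these libraries only, and differences between replicates may be technical. The other 14 libraries of the series (IgG, SMARCA5, siOrc2 and a further Orc6 antibody) were not analysed here, so no list of a control antibody stands beside these values.

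The lists themselves differed in ways that bear on every count. They held from 6992 to 132408 regions and covered from 31.8 to 825.4 Mb, and within SMARCA1 and OGG1 each H2O2 list held more regions than each NT list. The SMARCA1 NT replicates under siGl3 stood apart from each other, with 13.5% and 27.7% of all protein-coding genes occupied, as did the Orc6 NT replicates, with 47.4% and 66.5%. All 4 SMARCA1 lists of siOrc6 cells carry a mark of resubmission in their names and none of siGl3 cells does, so the siRNA and this mark cannot be told apart. The read depth behind the lists is unknown.

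In every library a larger share of the mitochondrial ribosomal protein genes than of all protein-coding genes was occupied. The gap ran from 5.4 to 19.2 percentage points over the 20 libraries. SMARCA1 regions were found at 15 and 36 of the 77 genes in the siGl3 NT replicates, at 59 and 59 in siGl3 H2O2, at 51 and 44 in siOrc6 NT and at 70 and 71 in siOrc6 H2O2. The lowest of these 8 counts is the siGl3 NT replicate 1, whose list was also the shortest of the series. OGG1 regions were found at 47 and 53 genes in siGl3 NT, 73 and 74 in siGl3 H2O2, 52 and 58 in siOrc6 NT and 74 and 74 in siOrc6 H2O2. With H2O2 the OGG1 lists thus left only 3 or 4 of the 77 genes without a region. Orc6 regions were found at 42 and 66 genes in NT and at 66 and 60 after H2O2, so the Orc6 counts overlapped between treatments.

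As group means, SMARCA1 occupied 33.1% ± 19.3 (SD, n = 2) of the 77 genes in siGl3 NT cells and 76.6% ± 0.0 (SD, n = 2) in siGl3 H2O2 cells. Over all protein-coding genes the same means were 20.6% and 58.3%. The highest SMARCA1 share, 91.6% ± 0.919 (SD, n = 2) against 75.2% of all genes, was in siOrc6 H2O2 cells, and in siOrc6 NT cells it was 61.7% ± 6.43 (SD, n = 2). OGG1 occupied 64.9% ± 5.52 (SD, n = 2) in siGl3 NT, 95.4% ± 0.919 (SD, n = 2) in siGl3 H2O2, 71.4% ± 5.52 (SD, n = 2) in siOrc6 NT and 96.1% ± 0.0 (SD, n = 2) in siOrc6 H2O2. Orc6 occupied 70.1% ± 22.1 (SD, n = 2) in NT and 81.8% ± 5.52 (SD, n = 2) after H2O2. An SD of 0.0 here means that the 2 replicates gave the same number of genes.

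**Figure D1:**
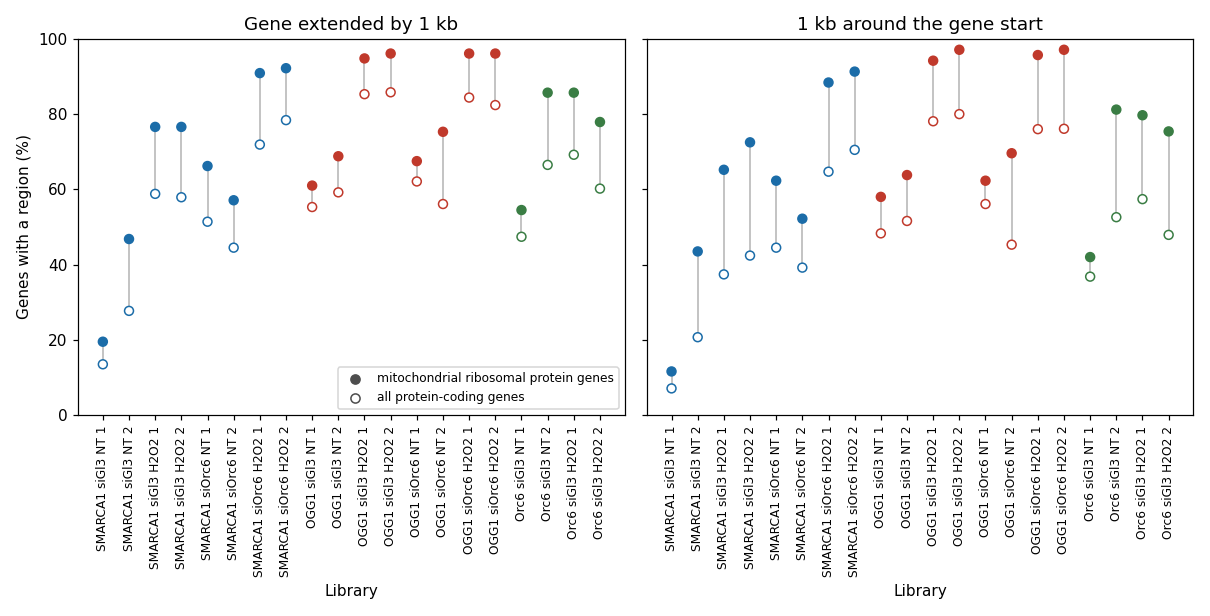
Percent of the 77 mitochondrial ribosomal protein genes (filled points) and of all protein-coding genes (open points) with a region in each of the 20 libraries (blue SMARCA1, red OGG1, green Orc6), for the gene extended by 1 kb (left) and for 1 kb on each side of the gene start (right, 69 and 15811 genes). The filled point lies above the open point in all 20 libraries in both panels.

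The higher share also held at the gene starts, where gene length plays no part in the window. Of the 77 genes, 69 had a start in the RefSeq promoter table, and a window of 1 kb on each side of it was occupied more often than over all 15811 genes with a start, by 4.5 to 30.1 points, in 20 of 20 libraries. The median mitochondrial ribosomal protein gene was 8.62 kb long, and the median protein-coding gene was 24.2 kb long. Other housekeeping complexes stood close to these genes: in siGl3 H2O2 cells SMARCA1 occupied 74.7% of the 85 cytosolic ribosomal protein genes and 72.0% of the 50 proteasome subunit genes, beside 76.6% here. In siOrc6 NT cells the SMARCA1 shares lay further apart, at 82.9% of cytosolic ribosomal protein genes and 59.0% of proteasome genes beside 61.7%. These differences between gene families were not tested.

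The 2 protein classes had like shares. OGG1 after H2O2 in siGl3 cells occupied 95.7% of the 47 genes whose product has a bacterial counterpart and 95.0% of the 30 whose product is specific to mitochondria. SMARCA1 occupied 34% and 31.6% of these classes in siGl3 NT cells and 78.8% and 73.3% in siGl3 H2O2 cells. The median gene was occupied in 16 of the 20 libraries in the first class and in 17 in the second. Large- and small-subunit symbols had a median of 16 libraries each, and the median over all protein-coding genes was 14. The widest gap between the subunits was in SMARCA1 siGl3 H2O2 cells, with 83.7% of MRPL and 64.2% of MRPS genes, and it was carried by replicate 1 (87.8% and 57.1%) more than by replicate 2 (79.6% and 71.4%).

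**Figure D2:**
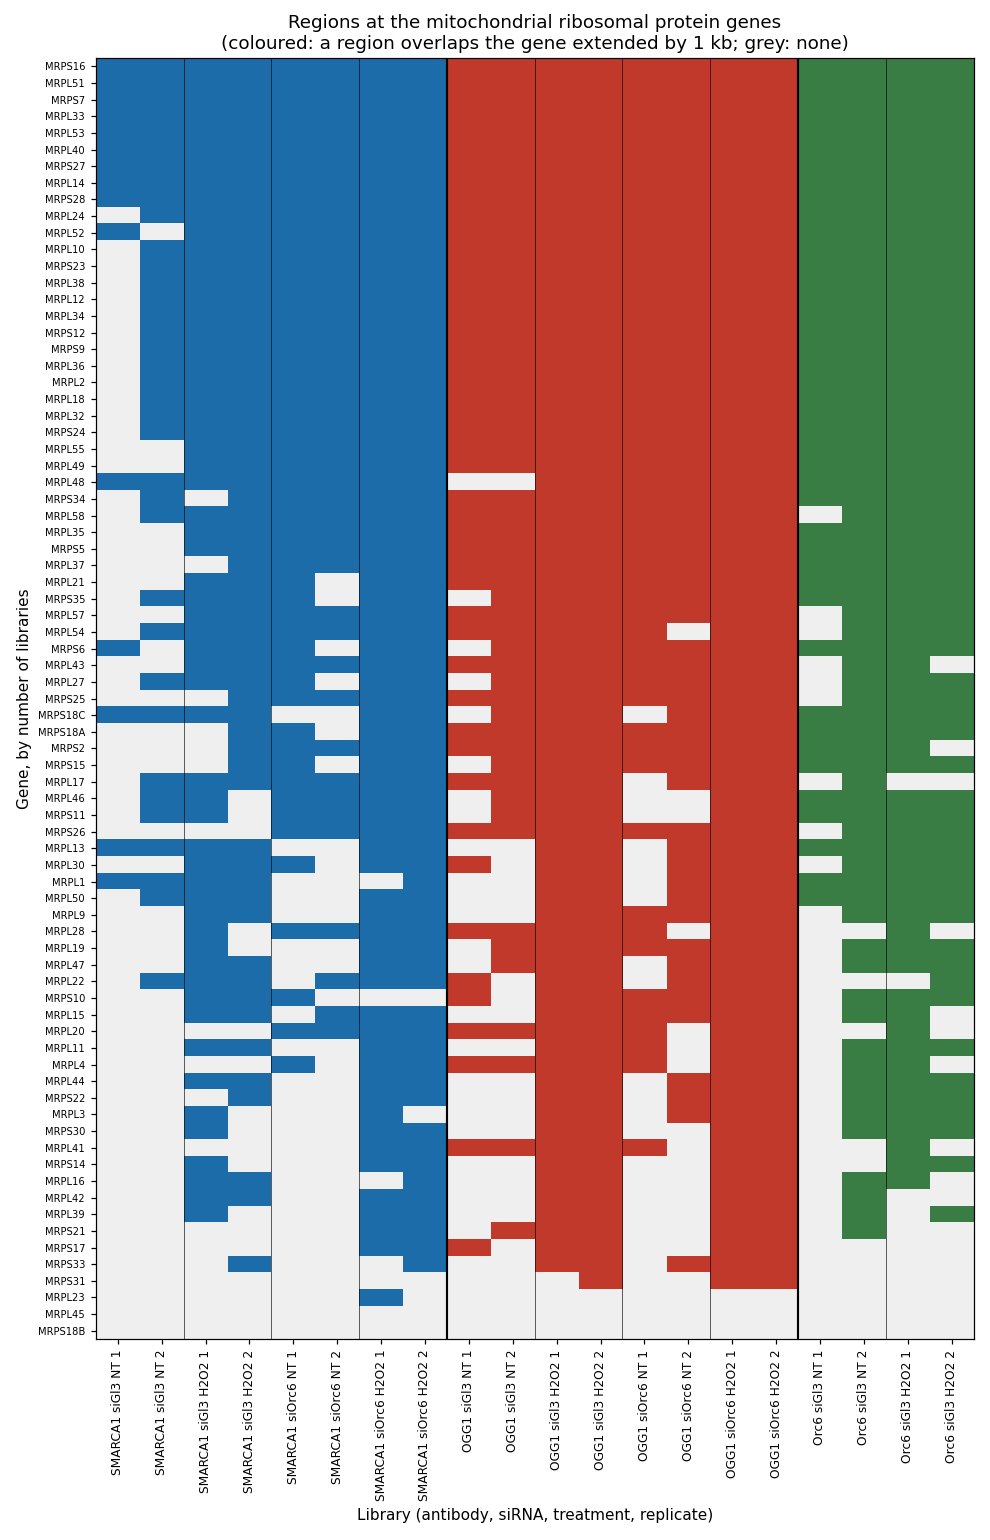
Each row is 1 of the 77 genes, ordered by the number of libraries in which it was occupied, and each column is 1 of the 20 libraries; a cell is coloured (blue SMARCA1, red OGG1, green Orc6) where a region overlaps the gene extended by 1 kb. The 9 genes at the top are coloured throughout, and the OGG1 H2O2 columns are coloured in all but the last rows.

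Of the 77 genes, 9 were occupied in all 20 libraries (11.7%, against 8.79% of protein-coding genes), 30 in at least 18 and 48 in at least 15. How strong a region was can only be read within its own list, so each gene was given the percentile, among the regions of that list, of the total signal of its strongest region. MRPL14, a large-subunit protein at the interface with the small subunit, had the highest mean percentile of the 9, 89.9, with a lowest value of 70.2 in SMARCA1 siGl3 NT replicate 1 and a highest of 99.1 in OGG1 siGl3 H2O2 replicate 1. MRPL53, a mitochondria-specific large-subunit protein, had a mean of 88.6. In the OGG1 libraries its percentile ran from 96.8 to 100, and in SMARCA1 siGl3 NT replicate 1 it was 17.6. MRPL53 is only 699 bp long, and regions covered 100% of it in all 20 libraries. MRPL40, another mitochondria-specific large-subunit protein, reached a mean of 88.2, with Orc6 percentiles of 91.8 and 99.7 in NT and 98.7 and 99.9 after H2O2.

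The other genes occupied throughout were MRPS7 (mean percentile 86.1), a small-subunit head protein with a bacterial counterpart, MRPS16 (85.8) and MRPS28 (77.6), of the small subunit, MRPL33 (82.5) and MRPL51 (84.3), of the large subunit, and MRPS27 (56.4). MRPS27 is a small-subunit protein with pentatricopeptide repeats, which are RNA-binding elements. In siGl3 NT cells its regions stood at percentiles of 6.5 and 7.2 for SMARCA1, 4.9 and 29.9 for OGG1 and 20.5 and 88.1 for Orc6. After H2O2 in the same cells they stood at 94.7 and 83.4 for SMARCA1 and at 91.9 and 89.9 for OGG1, above both NT values, and at 79.7 and 73.0 for Orc6, between the NT values. In siOrc6 cells the SMARCA1 percentiles of 59.5 and 9.6 in NT and 57.6 and 79.9 after H2O2 overlapped, and those of OGG1, 19.9 and 70.3 in NT and 83.7 and 77.4 after H2O2, did not. Over all occupied genes the median percentile was also higher after H2O2, for OGG1 from 65.9 and 71.2 in siGl3 NT to 91.0 and 91.0 in siGl3 H2O2. Percentiles from lists of different lengths show no change in signal, and these genes were picked for being occupied throughout, so the values are a description.

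**Figure D3:**
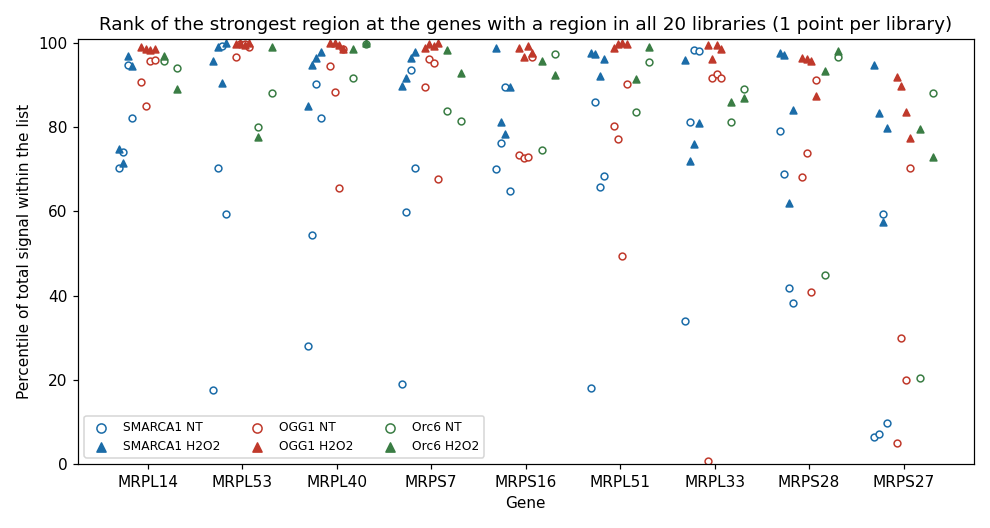
Percentile of total signal of the strongest region within its own list, for the 9 genes occupied in all 20 libraries; 1 point per library, open circles NT, triangles H2O2, blue SMARCA1, red OGG1, green Orc6. OGG1 H2O2 points lie at or near the top for MRPL53 and MRPL40, while MRPS27 has NT points below 10 for SMARCA1 and OGG1.

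At the other end, MRPL45 and MRPS18B were occupied in 0 of 20 libraries, a state shared by 2.6% of these genes and 10.2% of all protein-coding genes. MRPL45 sits beside the polypeptide exit tunnel and ties the ribosome to the inner membrane, and MRPS18B is a small-subunit protein. Across the 20 lists together, the nearest region to MRPL45 (chr17:38297168-38323211) lay 104.6 kb away and that to MRPS18B (chr6:30617840-30626392) lay 2107.4 kb away. At both loci the lists are thus empty well beyond the gene itself, and no source used here says whether these stretches were masked. MRPL23, at the exit tunnel, was occupied in 1 library, SMARCA1 siOrc6 H2O2 replicate 1. MRPS31 was occupied in 3 libraries, all of OGG1 after H2O2, and MRPS17 and MRPS33 in 7 each. Across the 77 genes, the number of libraries and gene length had a Spearman correlation of -0.23, which describes genes measured in the same 20 libraries. The 9 genes occupied throughout had a median length of 4.5 kb, and the 14 genes occupied in 10 or fewer libraries had one of 13.7 kb.

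Where a region overlapped the window of 1 kb on each side of a mitochondrial ribosomal protein gene start, a maximum usually lay close to that start. Where several regions did, the maximum nearest the start was taken, so closeness was partly set by this rule, here and over all genes. The percentile given for a gene is that of its strongest region, which can be another one. Of 968 pairs of a gene and a library with such a region, 70.9% had the position of maximum signal within 500 bp of the start, against 58.9% of such pairs over all genes. The median distance was 281 bp, against 364 bp over all genes. Pooled over libraries, SMARCA1 maxima were the closest after H2O2, with 82.2% of 219 pairs within 500 bp (72.1% over all genes). In NT it was 76.1% of 117 pairs (65.9% over all genes). For OGG1 these shares were 61.7% of 175 pairs in NT and 64.2% of 265 pairs after H2O2, beside 58.0% and 47.9% over all genes. Orc6 maxima lay within 500 bp in 80.0% of 85 NT pairs and 66.4% of 107 H2O2 pairs, beside 64.2% and 53.8%. The median distances per library overlapped between treatments for each antibody. For SMARCA1 they ran from 210 to 349 bp in NT and from 188 to 354 bp after H2O2. The maxima were nearly balanced around the start, with 53.7% on the transcribed side.

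**Figure D4:**
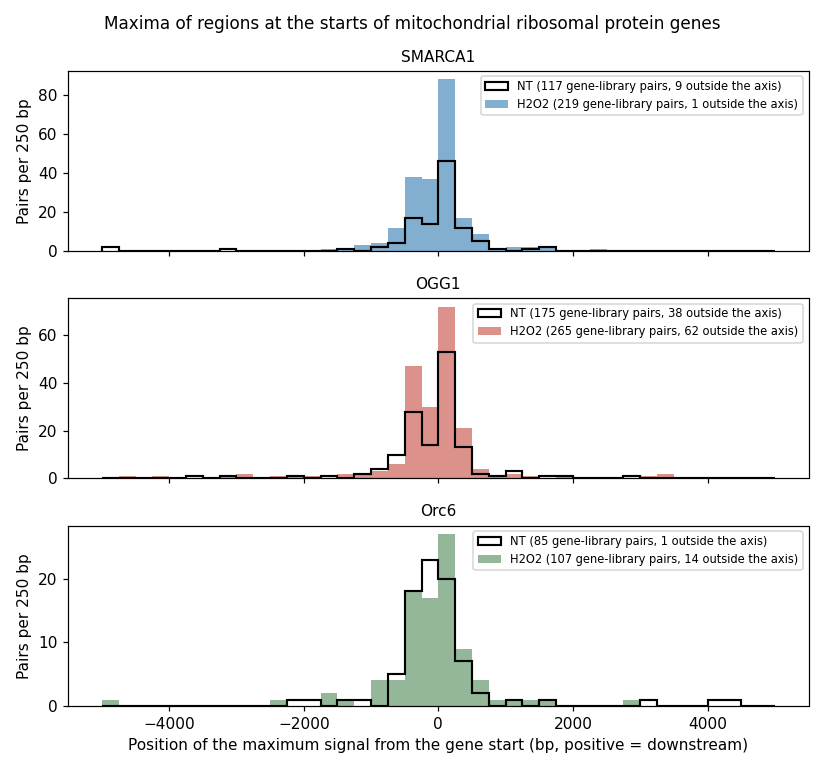
Number of gene and library pairs by the distance of the nearest maximum from the gene start (250 bp bins, positive values downstream), for SMARCA1, OGG1 and Orc6. Only regions within 1 kb of the start were used. Outlined bars are NT and filled bars H2O2, with pairs beyond 5 kb counted in the key. All 6 distributions peak within 500 bp of the start.

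After H2O2 the regions at these genes were broader for OGG1 than for SMARCA1. In the H2O2 lists, SMARCA1 regions covered a median of 11.9% to 18% of the length of a mitochondrial ribosomal protein gene per library, whereas OGG1 regions covered 79.5% to 89.4%. The median strongest region at these genes was 1548 to 2565 bp wide for SMARCA1 after H2O2 and 13136 to 17443 bp wide for OGG1 after H2O2. Orc6 regions lay between them after H2O2, with median widths of 8028 and 12690 bp. In siOrc6 NT cells the widths met, at 6756 and 4900 bp for SMARCA1 and 12470 and 6745 bp for OGG1, and in siGl3 NT cells they were 3349 and 2735 bp for SMARCA1, 7275 and 12632 bp for OGG1 and 5901 and 4218 bp for Orc6. A region as wide as those of OGG1 after H2O2 often reaches past a gene of this family into its neighbours. MRPL46 and MRPS11 lie head to head on chromosome 15, with starts 320 bp apart, and shared a region in 15 libraries, all those in which either was occupied. No other pair of these genes shared a region.

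Head-to-head starts were common here. Of the 69 genes with a start, 18 (26.1%, against 10.3% of all genes with a start) had a protein-coding gene starting within 1 kb on the opposite strand. Among the partners were PSMA2, a proteasome subunit, opposite MRPL32, TCP1, a chaperonin subunit, opposite MRPL18, SARS2, a mitochondrial seryl-tRNA synthetase, opposite MRPS12, and FAU, which encodes a cytosolic ribosomal protein, opposite MRPL49. The 18 genes were occupied in a median of 17 libraries and the other 51 in a median of 15. A region at such a start cannot be given to either gene of the pair.

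H2O2 exposure was the first comparison the design allows, and for OGG1 it gave the only changes that passed the test. MRPS14, MRPL16, MRPL42, MRPL39 and MRPS30 were held by OGG1 regions in each of the 4 H2O2 libraries, from siGl3 and siOrc6 cells alike, and in 0 of 4 NT libraries. Each had p = 0.0286 by a two-sided Fisher's exact test of 4 against 4 libraries, and an adjusted p of 0.0323 over the 1767 protein-coding genes whose total could reach the threshold of 0.05. These 5 genes are 6.49% of the 77, close to the 7.84% of all protein-coding genes that gained OGG1 regions in the same way. Over the family, 37 of 77 genes were occupied by OGG1 in more H2O2 than NT libraries, 40 in equally many and 0 in fewer. That is 48.1% with more, beside 47.3% of all genes, of which 0.145% had fewer. No gene of the genome was occupied in all OGG1 NT libraries and in no H2O2 library.

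The promoters of these 5 genes are printed since most of the OGG1 H2O2 maxima nearest these starts lay within 500 bp. They are followed by those of the 3 genes with the highest percentiles among the genes occupied throughout. Each runs from 250 bases before to 50 after the RefSeq start (build GRCh38.p14), 5′ to 3′ on the gene's own strand. Capitals mark matches, on either strand, to AAGATGGCG (YY1), CCGGAAGT (ETS factors), CCAAT (NF-Y, ATTGG on the other strand) and GGGCGG (SP factors, CCGCCC on the other strand). The 5 with gained regions come first, from chr1:175023376-175023675 (minus strand), chr11:59810729-59811028 (minus), chr12:93467264-93467563 (plus), chr21:25607432-25607731 (minus) and chr5:44808697-44808996 (plus).
MRPS14: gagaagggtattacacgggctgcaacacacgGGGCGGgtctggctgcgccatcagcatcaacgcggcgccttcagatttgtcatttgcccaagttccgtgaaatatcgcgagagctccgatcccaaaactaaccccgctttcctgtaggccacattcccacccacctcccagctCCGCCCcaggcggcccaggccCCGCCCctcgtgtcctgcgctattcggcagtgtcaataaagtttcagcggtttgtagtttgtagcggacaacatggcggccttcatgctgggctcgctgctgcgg
MRPL16: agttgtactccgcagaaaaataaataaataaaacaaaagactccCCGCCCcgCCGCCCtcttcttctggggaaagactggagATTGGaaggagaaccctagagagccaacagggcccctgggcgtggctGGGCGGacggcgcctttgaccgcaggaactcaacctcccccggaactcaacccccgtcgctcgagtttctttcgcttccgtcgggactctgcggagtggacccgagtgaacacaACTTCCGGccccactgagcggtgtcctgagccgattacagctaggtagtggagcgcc
MRPL42: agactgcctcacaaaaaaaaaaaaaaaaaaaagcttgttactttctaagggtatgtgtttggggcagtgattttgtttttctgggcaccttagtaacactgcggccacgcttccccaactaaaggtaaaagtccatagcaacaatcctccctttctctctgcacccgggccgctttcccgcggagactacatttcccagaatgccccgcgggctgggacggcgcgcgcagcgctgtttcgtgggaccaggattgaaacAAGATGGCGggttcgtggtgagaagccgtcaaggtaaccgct
MRPL39: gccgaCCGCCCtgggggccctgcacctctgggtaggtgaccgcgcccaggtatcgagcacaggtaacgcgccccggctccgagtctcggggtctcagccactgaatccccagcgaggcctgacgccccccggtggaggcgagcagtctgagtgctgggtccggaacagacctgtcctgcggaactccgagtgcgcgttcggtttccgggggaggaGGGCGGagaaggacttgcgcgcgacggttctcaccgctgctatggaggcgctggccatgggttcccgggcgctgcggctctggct
MRPS30: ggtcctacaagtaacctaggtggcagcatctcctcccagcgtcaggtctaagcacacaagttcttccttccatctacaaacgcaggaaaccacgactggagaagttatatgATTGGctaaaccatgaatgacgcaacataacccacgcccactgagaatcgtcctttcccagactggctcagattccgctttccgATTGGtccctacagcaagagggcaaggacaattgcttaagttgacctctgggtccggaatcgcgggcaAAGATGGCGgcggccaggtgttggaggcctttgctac

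The 3 promoters of genes occupied in every library come from chr6:44127259-44127558 (minus), chr2:74472631-74472930 (minus) and chr22:19432295-19432594 (plus).
MRPL14: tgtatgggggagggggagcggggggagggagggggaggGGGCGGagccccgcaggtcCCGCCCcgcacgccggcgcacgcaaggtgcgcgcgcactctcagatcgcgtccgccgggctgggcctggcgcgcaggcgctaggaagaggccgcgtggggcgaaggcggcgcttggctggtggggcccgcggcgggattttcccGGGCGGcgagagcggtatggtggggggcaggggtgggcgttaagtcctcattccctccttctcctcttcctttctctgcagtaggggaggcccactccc
MRPL53: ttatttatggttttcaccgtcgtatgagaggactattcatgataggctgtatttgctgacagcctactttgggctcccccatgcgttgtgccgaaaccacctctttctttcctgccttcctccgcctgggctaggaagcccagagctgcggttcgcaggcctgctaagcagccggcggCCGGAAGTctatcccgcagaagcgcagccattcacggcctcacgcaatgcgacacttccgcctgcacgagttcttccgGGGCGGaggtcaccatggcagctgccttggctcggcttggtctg
MRPL40: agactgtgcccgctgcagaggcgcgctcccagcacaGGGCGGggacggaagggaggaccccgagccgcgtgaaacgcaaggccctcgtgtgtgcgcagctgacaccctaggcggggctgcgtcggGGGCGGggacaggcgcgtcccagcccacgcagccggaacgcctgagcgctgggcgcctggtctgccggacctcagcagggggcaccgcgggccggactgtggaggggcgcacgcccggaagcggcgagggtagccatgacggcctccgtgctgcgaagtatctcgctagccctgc

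The printed promoters differ in their motif matches. Counted from the start, MRPL42 and MRPS30 hold the YY1 letters at 8 and 13 bp downstream, MRPL16 holds the ETS letters 7 bp upstream and MRPL53 holds them 72 bp upstream. MRPS14, MRPL39, MRPL14 and MRPL40 hold only SP matches among the motifs searched. Over the 69 promoters, the YY1 letters were found in 13 (18.8%), against 2.74% of all 15811 promoters, and the ETS letters in 11 (15.9%), against 6.19%. SP letters were found in 60.9% of the 69 and 58.5% of all, and CCAAT in 29.0% and 36.3%. The palindromic NRF1 motif was in 1.45% and 1.76%, CACGTG (an E-box) in 8.7% and 8.87%, TGANTCA (AP-1) in 1.45% and 5.76%, and TGACGTCA (a CRE) in 0 promoters of the 69 and 2.59% of all. A match is a stretch of letters and no measure of a factor's binding. Median GC content was 60.3% in the 69 promoters and 62.7% in all, with 24 and 22 CpG.

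MRPS14 (chr1:175012958-175023425) encodes a small-subunit protein with a bacterial counterpart. Its OGG1 percentiles after H2O2 were 50.9 and 54.6 under siGl3 and 74.3 and 63.4 under siOrc6, and the maxima lay 90, 123, 138 and 194 bp downstream of its start. All 4 maxima thus lay on the transcribed side and within 200 bp of the start. MRPL16 (chr11:59806140-59810778), a large-subunit protein with a bacterial counterpart, stood higher within the lists, at 89.2 and 84.0 in siGl3 and 74.2 and 73.9 in siOrc6 cells. Its maxima lay on both sides of the start, at -210 and 162 bp in the siGl3 H2O2 libraries. OGG1 regions covered 100% of MRPL16 in both siGl3 H2O2 libraries and 88.4% and 80.0% in siOrc6 H2O2.

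MRPL42 (chr12:93467514-93516214) is a mitochondria-specific large-subunit gene. Its OGG1 percentiles after H2O2 were 69.6 and 56.8 in siGl3 and 74.9 and 56.0 in siOrc6 cells. The maxima nearest the start lay 136, 152, 117 and 98 bp downstream of it, and regions covered only 11% to 30.4% of this long gene. Maxima further along the gene were not measured. MRPL39 (chr21:25585656-25607859), also specific to mitochondria, had percentiles of 45.2, 62.6, 87.6 and 61.2 over the siGl3 and siOrc6 H2O2 libraries in turn, with maxima at 234, 165, 96 and -209 bp. MRPS30 (chr5:44808947-44815514) carries a small-subunit symbol but is known to sit in the large subunit, and its percentiles were 58.8, 53.4, 85.8 and 44.8. Its maxima lay 356, 129 and 278 bp from the start in 3 libraries and at -2284 bp in siOrc6 H2O2 replicate 1. Over the 5 genes the gained regions ranked between percentiles 44.8 and 89.2 of their lists. The median over all occupied genes was 91.0 and 91.0 in the siGl3 and 90.3 and 88.1 in the siOrc6 H2O2 libraries. Each gained region ranked below the median of its library.

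Whether genes passed the test changed with list length and with the number of H2O2 libraries. With each OGG1 list held to its 17813 strongest regions, the length of the shortest one, 0 genes passed (lowest adjusted p 0.309) and the share of these 77 genes still differed by 11.4 points between H2O2 and NT, where all genes differed by 0.2. With lists held to equal covered bases, 0 passed and the difference turned to -18.2 points (all genes -17.9). None of the 5 genes kept the pattern under either setting, and MRPS14, MRPL16 and MRPL42 kept it when lists were limited to regions above their median total signal. Leaving out any 1 of the 4 H2O2 libraries also left 0 genes passing by Fisher's exact test, with lowest adjusted p between 0.0599 and 0.0651. The 5 genes still had the pattern then, as genes occupied in 4 against 0 libraries must. Over the genome 1620 to 1898 genes had it, against 1565 with all libraries. Which genes can reach the threshold also changes with the number of libraries, so the loss cannot be put down to any 1 library. Without OGG1 siOrc6 NT replicate 2, 2699 genes passed, 12 of them in this family. Without OGG1 siGl3 NT replicate 2, 8 genes of the family and 1812 of the genome had the pattern. With the replicate number as a block, an exact sign test over the 4 pairs cannot go below p = 0.125, so 0 genes passed.

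As a share, OGG1 occupancy of the 77 genes was higher after H2O2 by 30.5 points in siGl3 and 24.7 points in siOrc6 cells. All genes differed by 28.3 and 24.3 points. In both siRNA groups the lowest H2O2 count lay above the highest NT count (73 against 53 and 74 against 58).

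For SMARCA1, MRPL9, MRPL11, MRPL42, MRPL44 and MRPL47 had regions in each of 4 H2O2 libraries and in 0 of 4 NT libraries. They are 6.49% of the 77, beside 5.02% of all protein-coding genes with this pattern, and 4 genes of the genome (0.02%) had the reverse. By Fisher's exact test each had p = 0.0286, but the adjusted p was 0.0586 over 2063 genes that could reach the threshold, so 0 genes passed, with 1006 at an unadjusted p under 0.05. Without SMARCA1 siGl3 H2O2 replicate 2, 9 genes of the family and 1598 of the genome had the pattern. All 5 have large-subunit symbols: MRPL11 lies at the base of the stalk that recruits translation factors, MRPL9 and MRPL47 have bacterial counterparts, and MRPL42 and MRPL44 are specific to mitochondria. MRPL42 had this pattern with both SMARCA1 and OGG1, and the share of all genes with both was not counted.

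Within the SMARCA1 H2O2 lists, MRPL9 had percentiles of 84.4 and 71.5 in siGl3 and 46.9 and 73.2 in siOrc6 cells. MRPL47 had 93.0 and 74.2 in siGl3 and 72.7 and 41.9 in siOrc6 cells. MRPL42 stood low, at 15.6, 50.7, 14.3 and 11.8, so its SMARCA1 regions were among the weaker ones of their lists. MRPL11 ranged from 23.1 to 80.2 and MRPL44 from 23.6 to 73.8. None of these 5 kept the pattern when lists were limited to regions above their median total signal, where 7 other genes of the family showed it, 1526 genes of the genome passed and the lowest adjusted p was 0.0485.

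Over the whole family, 59 genes were occupied by SMARCA1 in more H2O2 than NT libraries, 18 in equally many and 0 in fewer (76.6% more, beside 68.7% of all genes). The share was higher after H2O2 by 43.4 points in siGl3 cells (all genes 37.7) and by 29.9 points in siOrc6 cells (all genes 27.2), and the counts did not overlap in either. With SMARCA1 lists held to the 6992 regions of the shortest one, the mean difference turned from 36.7 to -5.5 points (all genes 2.5).

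Orc6 knockdown was compared for SMARCA1 and OGG1 over both treatments. SMARCA1 occupied MRPL20 and MRPS26 in all 4 siOrc6 libraries and in none of the 4 siGl3 libraries (2.6% of the 77, beside 2.26% of all genes). MRPL20 is a large-subunit protein with a bacterial counterpart and MRPS26 a mitochondria-specific small-subunit protein. By Fisher's exact test the adjusted p was 0.126 and 0 genes passed, with 467 at an unadjusted p under 0.05, and 15 genes of the genome (0.0751%) had the reverse pattern, none of them in the family. Without SMARCA1 siGl3 H2O2 replicate 2, 5 genes of the family and 1021 of the genome were occupied in all siOrc6 and no siGl3 library. SMARCA1 percentiles at MRPL20 were 26.5 and 22.5 in NT and 82.0 and 83.3 in H2O2 siOrc6 cells, and at MRPS26 they were 52.9 and 45.1 in NT and 75.5 and 91.1 in H2O2. At both genes the H2O2 values, from longer lists, lay above the NT values. With lists held to equal length, 1029 genes passed (lowest adjusted p 0.0447), 4 of them mitochondrial ribosomal protein genes, 3 with the all-against-none pattern in siOrc6 and 1 with the reverse, and neither MRPL20 nor MRPS26 was among these.

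SMARCA1 was found at 47 of the 77 genes in more siOrc6 than siGl3 libraries, at 24 in equally many and at 6 in fewer. That is 61.0% with more and 7.79% with fewer, beside 57.3% and 7.61% of all genes. The share was higher in siOrc6 cells by 28.5 points in NT (all genes 27.4) and by 15 points after H2O2 (all genes 16.8). The counts did not overlap (51 and 44 against 15 and 36 in NT, 70 and 71 against 59 and 59 after H2O2). These values stand beside the mark of resubmission described above, and without SMARCA1 siGl3 NT replicate 1 the difference averaged over both treatments was 14.9 points in place of 21.8 (all genes 18.5 in place of 22.1). With lists held to equal covered bases it turned to -9.1 points (all genes -2.5). MRPL1, MRPS18C and MRPL13 ran the other way in NT cells, occupied in 2 of 2 siGl3 and 0 of 2 siOrc6 libraries. These 3 were chosen after their values were seen. How many of all genes had this split in NT cells was not counted, so no background stands beside the 3. MRPL1 regions were among the weakest of the siGl3 NT lists, at percentiles of 4.5 and 2.3, while those of MRPL13 stood at 50.7 and 64.9.

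OGG1 gave no call with Orc6 knockdown. Of the 77, 18 were occupied in more siOrc6 than siGl3 libraries, 49 in equally many and 10 in fewer. That is 23.4% with more and 13.0% with fewer, beside 16.0% and 17.0% of all genes. The share differed by 6.5 points in NT (all genes 1.9) and by 0.7 points after H2O2 (all genes -2.1). The NT counts overlapped (52 and 58 against 47 and 53). No gene of the genome passed Fisher's exact test (0 at an unadjusted p under 0.05, adjusted p 1.0), and 0.0% had the pattern of all against none. The genes with the widest difference were MRPL9, MRPL48 and MRPL15, each in 4 siOrc6 and 2 siGl3 libraries. In NT cells all 3 were occupied by OGG1 in both siOrc6 libraries and in neither siGl3 library, and in H2O2 cells in all 4. They were named for their wide difference, and the share of all genes with this NT split was not counted.

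For Orc6 itself, H2O2 was compared in siGl3 cells with 2 libraries against 2, a size at which the smallest p of Fisher's exact test is 0.333, so no call was possible. MRPS14 was occupied by Orc6 in both H2O2 libraries, at percentiles of 25.6 and 31.8, and in neither NT library. It was the only such gene of the 77 (1.3%, beside 1.95% of all genes), and 0 had the reverse (0.31% of all genes). Of the 77 genes, 21 were occupied in more H2O2 than NT libraries, 52 in equally many and 4 in fewer. That is 27.3% with more and 5.19% with fewer, beside 20% and 6.1% of all genes. The lean towards H2O2 was thus present over all genes too, and the difference between family and genome was not tested. The all-against-none pattern was shown by 17 genes of the family without Orc6 NT replicate 2 (2768 genes of the genome). It was shown by 2 without H2O2 replicate 1 (616 of the genome) and by 4 without H2O2 replicate 2 (1259 of the genome). With all libraries, 390 genes of the genome had it. The difference in the share went from 11.7 points to 27.3 without Orc6 NT replicate 2 and to -3.9 without Orc6 NT replicate 1. Over all genes it went from 7.8 points to 17.3 and to -1.8.

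The genes that build and serve the mitochondrial ribosome were read in the same way, from lists set for them: 25 assembly factors, 18 translation factors, 20 mitochondrial aminoacyl-tRNA synthetases and relatives, 12 genes of mitochondrial DNA transcription and RNA handling, and 5 ribosomal proteins or companions without an MRP symbol, such as DAP3. For OGG1 with H2O2, 2 of 25 assembly factors passed the test, the rRNA methyltransferases MRM1 and MRM3, beside 7.84% of all protein-coding genes. So did 2 of 18 translation factors, the elongation factor GFM1 and the GTPase GUF1, and 4 of 20 of the tRNA list, the synthetases FARS2 and RARS2 and the amidotransferase subunits GATB and QRSL1. None of the 12 DNA expression genes or the 5 other proteins passed, and no gene of these lists changed in the other direction. All of those named had an adjusted p of 0.0323 by Fisher's exact test, in 4 of 4 H2O2 and 0 of 4 NT libraries. OGG1 regions were present at 100% of assembly and translation factors on average after H2O2, beside 95.7% and 95.8% of the 2 classes of ribosomal proteins and 84.5% of all genes.

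For SMARCA1 with H2O2, the all-against-none pattern was shown by 7 genes of these lists, and by 5.02% of all protein-coding genes, without passing the test (adjusted p 0.0586): RPUSD4, a pseudouridine synthase, MTERF4, which acts with an rRNA methyltransferase, MRRF, the ribosome recycling factor, TARS2, AARS2, QRSL1 and MTERF1. With Orc6 knockdown the SMARCA1 pattern was shown by TUFM, the elongation factor Tu of mitochondria, and POLRMT, the mitochondrial RNA polymerase, and by 2.26% of all protein-coding genes (adjusted p 0.126). GUF1 and AARS2 were occupied by Orc6 in both H2O2 and neither NT library, as were 1.95% of all protein-coding genes. GUF1 and MRPS14 thus had regions of both OGG1 and Orc6 in all H2O2 libraries of these antibodies and in none of their NT libraries. The share of all genes with both patterns was not counted.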

How the data were processed

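CUT&RUN libraries of U2OS cells were analysed from the region lists the authors deposited, 1 list per library. Per the submitters' processing notes, Bowtie2, SAMtools, SEACR 1.1, bedtools and deepTools were used with the hg38 build, with no roles or parameters given. Each region carries the total and maximum signal the authors deposited. No source used here says how that signal was scaled, so it ranked regions within a list only. No 2 lists were identical.

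Genes came from the RefSeq gene table. A gene was occupied where a region overlapped it, extended by 1 kb, by 1 bp or more. H2O2 was compared with NT and siOrc6 with siGl3, 4 libraries against 4, by a two-sided Fisher's exact test per gene (SciPy 1.17.1). P-values were Benjamini-Hochberg adjusted over the protein-coding genes whose total could reach p under 0.05. The code was run on simulated occupancy, in which genes set to all against none were recovered, as they had to be. The simulation held no difference in list length between the arms. Genes were named where they were in all libraries of an arm and none of the other, in all 20, or in the fewest. Replicate numbers are batches per the labels, so they pair the samples, although replicate 1 occupied more genes in only 5 of 10 groups. The genes and lists were chosen with earlier results of these data known. Windows, overlaps, list lengths, single libraries and the replicate block were varied. A series list of Orc6 regions and 2 lists of SMARCA1 windows were not used.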

Additional observations from a re-analysis of the deposited data

How the results depend on the processing

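Widening or narrowing the gene window, asking for 200 bp of overlap and leaving out single libraries kept the direction of every SMARCA1 and OGG1 share, and the 5 OGG1 genes kept their pattern in each window and under the 200 bp overlap, but 3 of them with regions above the median signal and 0 with lists of equal length or equal covered bases. Most other values depended on list length, and the cause was not tested. With lists of equal length, the H2O2 difference in the share of the family was -5.5 points for SMARCA1 and 11.4 for OGG1, the siOrc6 difference for OGG1 was -1.6, the genes passing were 0 for OGG1 with H2O2 and 1029 for SMARCA1 with siOrc6, and the all-against-none genes of the family were 0 for SMARCA1, 1 for OGG1 and 5 for Orc6 with H2O2. With lists of equal covered bases, the H2O2 differences were 11.7 points for SMARCA1, -18.2 for OGG1 and -12.3 for Orc6, the siOrc6 differences were -9.1 for SMARCA1 and -1.3 for OGG1, 0 genes passed for OGG1, and the all-against-none genes were 1 for SMARCA1 with H2O2, 0 for OGG1 and 1 for SMARCA1 with siOrc6. The reverse pattern was then shown by 4 genes of the family for SMARCA1 with siOrc6 (274 genes of the genome, against 112) and by 3 for Orc6 with H2O2 (1409 against 50). With regions above the median total signal of their list, the H2O2 differences were 47.1 points for SMARCA1 and 50.3 for OGG1, 1526 SMARCA1 and 2627 OGG1 genes passed, and the all-against-none genes were 13 for OGG1, 2 for Orc6 and 1 for SMARCA1 with siOrc6. Around the gene start the OGG1 difference was 32.6 points, and SMARCA1 all-against-none genes were 2 with H2O2 and 1 with siOrc6. SMARCA1 had 3 such genes with H2O2 over the gene alone and 3 around the gene ends. Orc6 had 2 over the gene alone and 0 with 5 kb added.

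With the replicate number as a block, 0 genes passed for OGG1 with H2O2 and no other call changed. Leaving out 1 library at a time, the genes passing ranged from 0 to 2699 for OGG1 with H2O2, and 0 passed in the other comparisons. The all-against-none genes of the family ranged from 5 to 12 for OGG1, 5 to 9 for SMARCA1 and 1 to 17 for Orc6 with H2O2. Over the genome these ranges were 1620 to 2699, 1032 to 1609 and 522 to 2768. For SMARCA1 with siOrc6 they were 2 to 5 in the family and 453 to 1021 over the genome. The differences in the share ranged from 25.6 to 29.5 points for OGG1, 29.9 to 43.5 for SMARCA1 and -3.9 to 27.3 for Orc6 with H2O2, and from 14.9 to 28.6 for SMARCA1 and 1.6 to 5.5 for OGG1 with siOrc6. With 2 libraries per group and no known read depth, an absent region shows only that none was listed.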
